A study of Homo sapiens with 8 samples.

Results

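The genes described here are 80 protein-coding genes at the end of the short arm of human chromosome 4, from 0 to 20 Mb in GRCh37. A gene was a member when its first listed chromosome was 4, its smallest exon start lay within the first 20000000 bases, it was protein-coding and it averaged at least 1 CPM (counts scaled to the total of each library) over 8 RNA-seq libraries. Of 394 gene IDs in the region, 143 were protein-coding, 59 of these were below 1 CPM, and FGFR3, SLBP, NCAPG and MXD4 were left out by name, which leaves 80 of 63677 IDs in all. The region was chosen by its measured values, selected on a joint rise of its genes in PC9-BrM3 against PC9 parental cells. Values from that comparison describe the selection, and no test is read from them.

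The cells were PC9, a human lung adenocarcinoma line with an activating EGFR mutation, and its brain metastatic derivative PC9-BrM3. There were 8 libraries in 4 groups of 2. The shHSF1 group is PC9-BrM3 with Tet-pLKO-shHSF1, a doxycycline-inducible hairpin against HSF1 (1 hairpin clone), and the shNTC group is PC9-BrM3 with the non-target construct Tet-pLKO-shNTC. Both were delivered by lentivirus, selected in puromycin for 5 days and given doxycycline at 500 ng/mL for 48 h. The PC9-BrM3 and PC9 parental groups were untransduced and had no doxycycline or puromycin, and were kept in culture for 48 h before RNA was taken. The question of the untransduced pair is which genes differ in the metastatic subline, and that of the transduced pair is which genes depend on HSF1. The labels do not say whether replicates came from separate cultures, so the spread behind each p-value is that between these libraries and may be technical.

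The members share a place in the genome and no single function. The stretch is known for HTT, whose repeat expansion causes Huntington disease, for NSD2, LETM1 and NELFA, which are lost in Wolf-Hirschhorn syndrome, and for WFS1, mutated in Wolfram syndrome. Other members code for zinc finger proteins, actin and spindle proteins, lysosomal enzymes and growth factor binding proteins. HSF1 switches on heat shock genes under protein stress, and it binds inverted repeats of a short GAA unit in its target promoters.

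Counts assigned to genes ran from 33550140 to 56715336 per library, and a count of 0 allows up to 0.0529 to 0.0894 CPM (3 counts, counting error only). The members took 0.581% and 0.580% of the counts in the shHSF1 libraries, 0.535% and 0.521% in shNTC, 0.408% and 0.370% in PC9-BrM3, and 0.285% and 0.290% in PC9 parental. HSF1 stood at 15.6 and 13.5 normalized CPM in shHSF1 and at 178 and 184 in shNTC, and at 54.6 and 52.7 in PC9-BrM3 and 47.0 and 50.01 in PC9 parental. Normalized CPM here is CPM on TMM-scaled library sizes, with 1 scale for all 8 libraries. The 5 epithelial markers summed to 2768 to 5796 normalized CPM, while the 4 immune markers summed to at most 0.846, the 2 fibroblast markers to 0.0900 and the 4 brain markers to 0.981. CDH5, an endothelial cadherin, was measured at 24.3 and 18.7 normalized CPM in shHSF1, 44.3 and 37.7 in shNTC, 32.5 and 25.2 in PC9-BrM3, and 55.3 and 51.2 in PC9 parental. PECAM1, the other endothelial marker listed, was not analysed here, and the part of CDH5 in any result was not tested. The PC9-BrM3 replicates stood apart from each other more than those of other groups, with a chi-square per degree of freedom of 301 against 10.9 to 25.1, so values of that group are also given per library.

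In PC9-BrM3 against PC9 parental cells most members were higher by a moderate amount. Of 78 members tested, 68 had a positive log2 fold change and 10 a negative one, a positive share of 87.2% beside 51.1% of all genes tested. The median log2 fold change was 0.51 (quartiles 0.23 and 0.76) beside 0.01 over all genes tested, and the values ran from -0.80 to 2.79. By edgeR's quasi-likelihood test 11 members were called higher, where 3.87% of all tested genes were called higher, and 0 lower, where 3.27% were called lower; these counts come from the contrast that chose the members. In 55 of the 78, both PC9-BrM3 libraries lay above both PC9 parental libraries (29.0% of all genes), in 5 both lay below (30.0% of all genes), and in 18 the groups overlapped. In bulk RNA, fewer cells that express a gene and less RNA per cell cannot be told apart.

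Most members were higher in each PC9-BrM3 library on its own. Replicate 1 lay above both PC9 parental libraries for 66 of the 80 members and below both for 8, and replicate 2 for 62 and 13. The shares of all tested genes for 1 library were not measured. They cannot be under the 29.0% above and 30.0% below that held for both PC9-BrM3 libraries together. These counts also come from the comparison that chose the members. The median log2 ratio to the PC9 parental mean was 0.40 in replicate 1 and 0.56 in replicate 2. Without PC9-BrM3 replicate 1 the fitted median was 0.59 with 64 positive members, and without replicate 2 it was 0.40 with 70 positive members.

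**Figure D1:**
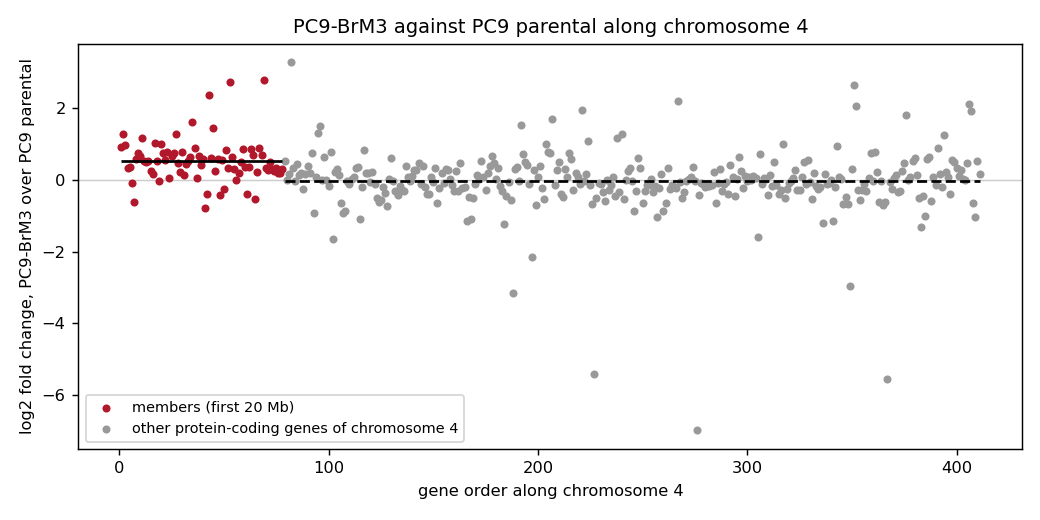
Fitted log2 fold change of PC9-BrM3 over PC9 parental for protein-coding genes with at least 1 CPM, in gene order along chromosome 4; red points are members, grey points the other genes, the solid line is the members' median and the dashed line the median of the others. The members' median is 0.51 and that of the 333 genes beyond 20 Mb is -0.02.

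On chromosome 4 the medians of bins beyond 20 Mb were lower than that of the members. The 333 protein-coding genes beyond 20 Mb had a median log2 fold change of -0.02, with 157 positive. In bins of 20 Mb after the region the medians were 0.14, -0.05, -0.08, 0.07, -0.15, -0.04, -0.11, -0.02 and 0.17. The 5 genes at 20 to 25 Mb had a median of 0.33 and the 9 genes at 25 to 30 Mb one of 0.18; all of these medians lay below the 0.51 of the members. Within the region the medians of bins of 2 Mb from the chromosome end were 0.56, 0.63, 0.23, 0.54, 0.36, 0.69, 0.56, 0.50 and 0.28, from 23, 13, 6, 15, 5, 3, 2, 5 and 6 tested members. All 9 bins had positive medians, and those at 4 to 6 Mb and 16 to 18 Mb had the lowest values. Among 151 bins of 20 Mb over the genome this region ranked first in this comparison, the one used to choose it. The next was chromosome 12 at 120 to 140 Mb, with a median of 0.42.

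The 8 members with the highest values came from several role groups. CC2D2A, a protein of the ciliary transition zone (15471489 to 15603180, plus strand, GRCh37), was at 9.73 and 13.4 normalized CPM in PC9-BrM3 and at 1.49 and 1.88 in PC9 parental. Its log2 fold change was 2.79 with an SE of 0.28 (n = 2 in each group). WFS1, the endoplasmic reticulum membrane protein wolframin (6271576 to 6304992, plus strand), was at 49.7 and 102 normalized CPM in PC9-BrM3 and at 14.0 and 15.7 in PC9 parental, a log2 fold change of 2.36 ± 0.35. The PC9-BrM3 libraries of both genes lay above all PC9 parental libraries, and for WFS1 they also lay far from each other. MAN2B2, a lysosomal mannosidase, was at 104 and 150.4 normalized CPM in PC9-BrM3 and at 44.9 and 49.3 in PC9 parental. TMEM175, an ion channel of the lysosome, was at 3.29 and 3.67 in PC9-BrM3 and at 1.68 and 1.46 in PC9 parental.

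CCDC96, a coiled-coil protein, was at 2.29 and 2.77 normalized CPM in PC9-BrM3 and at 0.301 and 0.459 in PC9 parental, a log2 fold change of 2.74 ± 0.35 from low counts. RGS12, which speeds the shutdown of G protein signals, was at 7.98 and 13.1 normalized CPM in PC9-BrM3 and at 3.81 and 3.14 in PC9 parental. FAM193A was at 20.6 and 41.7 in PC9-BrM3 and at 12.6 and 13.1 in PC9 parental. Of these, FAM193A depended most on 1 library: its log2 fold change was 1.29 with all libraries and 0.68 without PC9-BrM3 replicate 2. The zinc finger gene ZNF732, near the lower limit of expression, was at 2.50 and 2.59 normalized CPM in PC9-BrM3 and at 1.26 and 0.842 in PC9 parental.

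**Figure D2:**
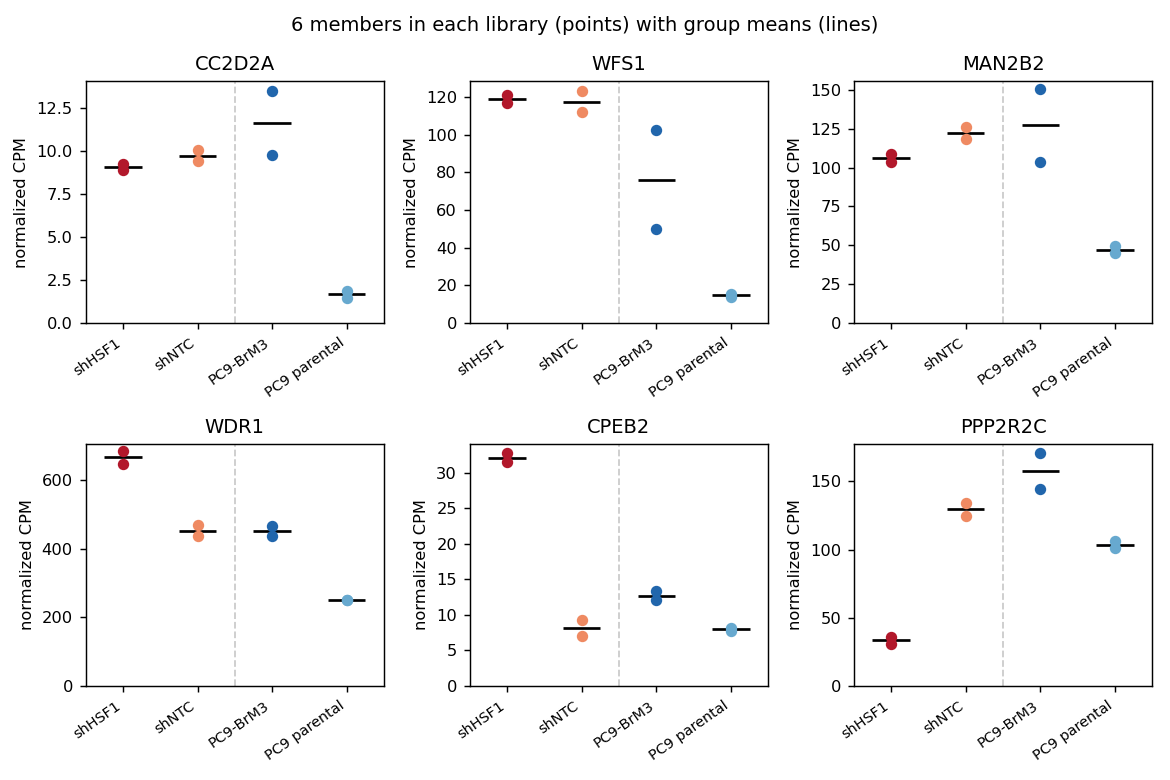
Normalized CPM (y axes, linear, from 0) of 6 members in each library, with points for libraries and lines for group means; the dashed line separates the transduced groups on the left from the untransduced groups on the right. CC2D2A, WFS1, MAN2B2 and WDR1 were higher in both PC9-BrM3 libraries than in PC9 parental, CPEB2 rose and PPP2R2C fell with shHSF1.

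Every role group had a positive median. The 8 members of the cytoskeleton, spindle and cilium had the highest, with a log2 fold change of 0.72, and the 7 of mitochondria and metabolism the lowest, with 0.30. The 15 members of chromatin and transcription had a median of 0.59 with 14 positive. NSD2, a histone methyltransferase, was at 326 and 337 normalized CPM in PC9-BrM3 and at 226 and 226 in PC9 parental, 1.48-fold higher with a log2 fold change of 0.56 ± 0.14. CTBP1, a transcriptional corepressor, was at 28.04 and 23.8 in PC9-BrM3 and at 22.6 and 24.2 in PC9 parental, with overlapping groups. PCGF3, a polycomb group protein, was at 50.1 and 51.4 in PC9-BrM3 and at 34.9 and 32.9 in PC9 parental.

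Among the cytoskeletal members, WDR1, which helps cofilin take actin filaments apart, was at 436 and 466 normalized CPM in PC9-BrM3 and at 250.41 and 250.02 in PC9 parental, 1.81-fold higher. TACC3, a microtubule protein of the spindle, was at 87.2 and 112 in PC9-BrM3 and at 48.5 and 51.6 in PC9 parental, 2.00-fold higher. AFAP1, an actin cross-linking protein, was at 155 and 161 in PC9-BrM3 and at 133 and 145 in PC9 parental, a log2 fold change of 0.19 ± 0.14. All 3 had both PC9-BrM3 libraries above both PC9 parental libraries, with the smallest gap in AFAP1.

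Among the 7 genes of ubiquitin, SUMO and protein turnover, 6 had a positive value and the median was 0.33. RNF4, a SUMO-targeted ubiquitin ligase, was at 89.3 and 88.0 normalized CPM in PC9-BrM3 and at 53.2 and 52.1 in PC9 parental, 1.69-fold higher. MAEA, a subunit of another ubiquitin ligase, was at 33.5 and 62.4 in PC9-BrM3 and at 22.0 and 24.98 in PC9 parental. LAP3, a leucine aminopeptidase, was at 56.8 and 51.5 in PC9-BrM3 and at 43.8 and 42.9 in PC9 parental. RNF4 was even between its replicates, while the MAEA value was 1.42 without PC9-BrM3 replicate 1 and 0.51 without replicate 2 on the log2 scale.

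The 15 genes of membrane traffic, lysosome and endoplasmic reticulum had a median of 0.59 with 13 positive. HTT, which encodes huntingtin, was at 154 and 156 normalized CPM in PC9-BrM3 and at 106 and 95.7 in PC9 parental, 1.55-fold higher with a log2 fold change of 0.63 ± 0.15. TBC1D14, a regulator of autophagy, was at 115 and 97.5 in PC9-BrM3 and at 82.1 and 86.5 in PC9 parental. In the mitochondrial group, LETM1, an inner membrane protein for ion exchange, was at 82.6 and 104 in PC9-BrM3 and at 55.8 and 56.0 in PC9 parental. GRPEL1, a co-chaperone of the mitochondrial matrix, was at 74.7 and 72.0 in PC9-BrM3 and at 57.4 and 62.4 in PC9 parental. None of these 4 had overlapping groups.

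The 4 genes of RNA processing and DNA repair all had positive values, with a median of 0.49. NOP14, needed to make the small ribosomal subunit, was at 73.7 and 110.1 normalized CPM in PC9-BrM3 and at 66.5 and 68.7 in PC9 parental. UVSSA, a factor of transcription-coupled repair, was at 11.9 and 13.8 in PC9-BrM3 and at 9.90 and 7.96 in PC9 parental. CPEB2, which binds messenger RNA and controls its translation, was at 13.3 and 12.03 in PC9-BrM3 and at 8.20 and 7.73 in PC9 parental. FGFBP1, a secreted carrier of fibroblast growth factors, was at 45.0 and 22.8 in PC9-BrM3 and at 20.5 and 27.96 in PC9 parental, with overlapping groups.

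ADD1, LRPAP1, KIAA0232, LYAR and BOD1L1 show the range of agreement between the PC9-BrM3 libraries. ADD1, an adducin that joins spectrin to actin, was at 118 and 133 normalized CPM in PC9-BrM3 and at 73.1 and 75.1 in PC9 parental. LRPAP1, a chaperone of lipoprotein receptors, was at 43.7 and 41.3 in PC9-BrM3 and at 22.7 and 23.8 in PC9 parental. KIAA0232 was at 90.5 and 86.0 in PC9-BrM3 and at 49.1 and 50.4 in PC9 parental, so in these 3 the replicates were close. LYAR, a nucleolar protein, was at 37.3 and 83.7 in PC9-BrM3 and at 37.7 and 38.5 in PC9 parental, and its log2 fold change of 0.67 was -0.04 without PC9-BrM3 replicate 2. BOD1L1, which protects replication forks, was at 227 and 433 in PC9-BrM3 and at 181 and 175 in PC9 parental.

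The 10 members that went the other way included a homeobox factor, a sulfotransferase and an orphan receptor. In 5 of them (MYL5, MSX1, EVC, GPR78 and HS3ST1) both PC9-BrM3 libraries lay below both PC9 parental libraries. MSX1, a homeobox transcription factor, had the lowest log2 fold change, -0.80 ± 0.31, with 2.07 and 1.41 normalized CPM in PC9-BrM3 and 3.38 and 2.74 in PC9 parental. HS3ST1, a heparan sulfate sulfotransferase, was at 4.60 and 5.45 in PC9-BrM3 and at 7.56 and 7.16 in PC9 parental. GPR78, an orphan receptor, was at 13.9 and 14.0 in PC9-BrM3 and at 19.7 and 17.0 in PC9 parental. EVC, a ciliary protein of hedgehog signalling, was at 24.0 and 39.6 in PC9-BrM3 and at 43.7 and 39.8 in PC9 parental, and MYL5, a myosin light chain, had a log2 fold change of -0.61 ± 0.31.

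The other negative members turned positive without PC9-BrM3 replicate 2. S100P, a small calcium-binding protein, was at 159 and 57.2 normalized CPM in PC9-BrM3 and at 136 and 154 in PC9 parental. Its log2 fold change was -0.41 with all libraries and 0.13 without PC9-BrM3 replicate 2. ATP5ME, a subunit of the mitochondrial ATP synthase, was at 62.7 and 31.0 in PC9-BrM3 and at 48.3 and 51.4 in PC9 parental. BLOC1S4, a subunit of a complex that builds lysosome-related organelles, was at 7.49 and 2.71 in PC9-BrM3 and at 5.76 and 6.62 in PC9 parental. In all 3 the replicates of PC9-BrM3 fell on either side of the PC9 parental libraries. TMEM129 and SORCS2 had values of -0.03 and -0.01.

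Per length, S100P had the highest group mean among the members in PC9-BrM3, 84.4 RPKM (here normalized CPM scaled to exon length). MRFAP1 with 76.0, WDR1 with 57.6 and ATP5ME with 49.8 RPKM came next, and the median member had 4.19 RPKM. The PC9-BrM3 replicates of S100P (159 and 57.2 normalized CPM) and ATP5ME (62.7 and 31.0) lay far apart. The order by group mean therefore need not hold in each library. Members just above the limit of 1 CPM were GRK4 with 1.29, C4orf48 with 1.41 and ZNF732 with 1.80 CPM on average, and genes just below included ZFYVE28 with 0.999 and HTRA3 with 0.781. The last member before 20 Mb was LCORL, which starts at 17842822, and the first coding genes beyond with at least 1 CPM on average were PACRGL at 20697905, ADGRA3 at 22346694 and DHX15 at 24519064. PACRGL averaged 17.3, ADGRA3 88.1 and DHX15 304 CPM.

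Between shHSF1 and shNTC cells, which share the PC9-BrM3 background and the lane, the 80 genes went in both directions. The difference between these groups was not used to choose the region. Their libraries did count in the mean of at least 1 CPM, so a low gene could become a member through the group where it is high. GRK4, at 1.94 and 2.44 CPM in shHSF1 and 0.653 and 1.13 in shNTC, was close to that limit. DOK7, C4orf48, IDUA, CPZ and CPLX1 reached it only through the transduced libraries. By edgeR's quasi-likelihood test with Benjamini-Hochberg adjustment over all genes, 26 members rose (32.5% of members, where 22.2% of all tested genes rose), 13 fell (16.2%, where 23.5% of all tested genes fell) and 41 were not called. The median log2 fold change was 0.09 beside 0.01 over all genes tested, and the values ran from -1.93 to 2.02. Of the called members, 5 rose by at least 2-fold, where 3.3% of expressed coding genes were that much higher, called or not. In 1 called member the fall was at least 2-fold, and the share of all genes with such falls was not measured. The 5 include the low genes GRK4, DOK7 and CPLX1, so no result on direction is read from these counts. Of the 55 members above PC9 parental in both PC9-BrM3 libraries, 18 rose and 12 fell with shHSF1.

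The counts of rises and falls stayed at 26 and 13 with RLE factors, and moved with upper-quartile factors and with all 8 libraries in 1 fit. With upper-quartile factors, which set the median of all genes at 0.07, 29 members rose and 8 fell, beside 27.3% and 20.1% of all genes. With all 8 libraries in 1 fit, 13 rose and 4 fell, beside 9.0% and 12.3% of all genes. Across all 10 alternative settings 13 of the 26 rises and 4 of the 13 falls (PPP2R2C, ZNF141, MRFAP1L1 and QDPR) stayed past the threshold, and no called member changed sign. Among the larger rises, DOK7 (edgeR adjusted p = 0.0549), FGFRL1 (adjusted p = 0.0732) and CPLX1 (adjusted p = 0.145) missed the threshold in the 8-library fit.

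**Figure D3:**
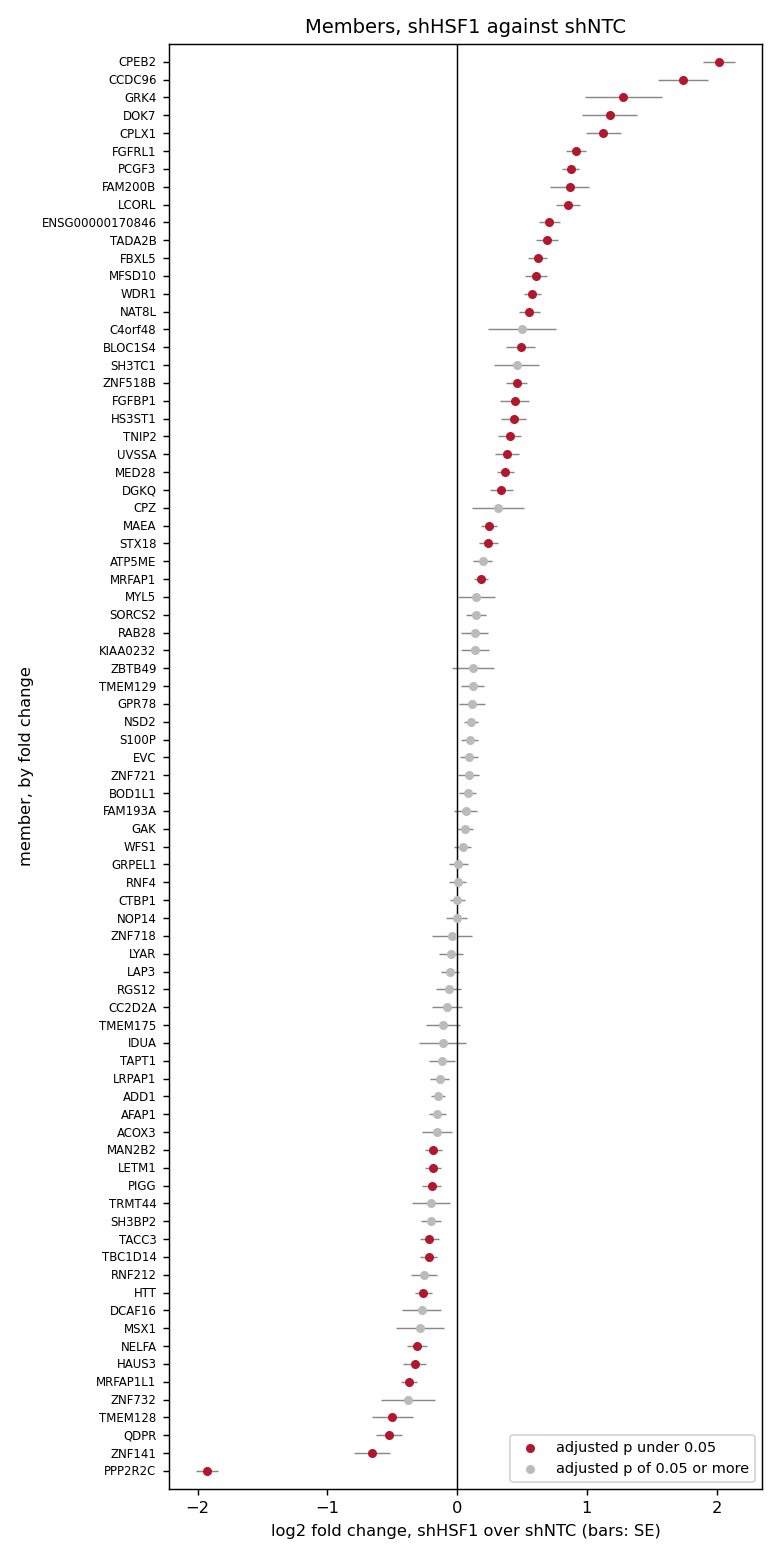
Fitted log2 fold change of shHSF1 over shNTC (x axis) for the 80 members, ordered by value, with bars of 1 SE; red points have an adjusted p under 0.05 in edgeR and grey points do not. CPEB2 at 2.02 and PPP2R2C at -1.93 are the ends, and 41 members are grey.

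The 2 largest changes were in a regulator of translation and a phosphatase subunit. CPEB2 was at 31.4 and 32.8 normalized CPM in shHSF1 and at 7 and 9.20 in shNTC. It rose 4.05-fold, by 2.02 ± 0.13 on the log2 scale (SE from 2 libraries in each group; edgeR adjusted p = 1.7e-06). PPP2R2C, a regulatory subunit of a serine/threonine phosphatase, was at 30.9 and 36.2 in shHSF1 and at 125 and 134 in shNTC. It fell 3.802-fold, a log2 fold change of -1.93 ± 0.09 (edgeR adjusted p = 2.28e-07). In both genes the shHSF1 libraries lay far outside the shNTC libraries, and their untransduced levels, 144 and 171 in PC9-BrM3 and 101 and 106 in PC9 parental for PPP2R2C, were closer to those of shNTC.

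The promoters of these 2 genes and of 2 members with a heat shock element pair are given because HSF1 was the factor knocked down. RefSeq promoters (GRCh38.p14, 250 bases before to 50 after the gene start) were matched for 63 of the 80 members. Both strands were searched for the inverted pairs GAANNTTC and TTCNNGAA, and capitals mark a match, here to this pair only. NELFA (chr4:2008925-2009224, minus strand) and TNIP2 (chr4:2756287-2756586, minus strand) hold 1 pair each, while these letters are not in the windows of CPEB2 (chr4:15002231-15002530, plus strand) and PPP2R2C (chr4:6563750-6564049, minus strand).
CPEB2: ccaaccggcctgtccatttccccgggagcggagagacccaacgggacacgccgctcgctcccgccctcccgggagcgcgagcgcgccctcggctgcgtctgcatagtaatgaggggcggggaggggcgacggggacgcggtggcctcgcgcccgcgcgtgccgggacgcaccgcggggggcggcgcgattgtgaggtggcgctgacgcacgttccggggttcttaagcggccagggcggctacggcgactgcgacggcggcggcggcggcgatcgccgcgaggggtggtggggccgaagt
PPP2R2C: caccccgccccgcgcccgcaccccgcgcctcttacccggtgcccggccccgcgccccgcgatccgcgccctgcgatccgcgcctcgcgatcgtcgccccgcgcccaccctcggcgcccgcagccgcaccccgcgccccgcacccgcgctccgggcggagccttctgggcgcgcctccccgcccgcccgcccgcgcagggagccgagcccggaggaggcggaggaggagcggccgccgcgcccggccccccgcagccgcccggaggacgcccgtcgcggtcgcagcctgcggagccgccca
NELFA: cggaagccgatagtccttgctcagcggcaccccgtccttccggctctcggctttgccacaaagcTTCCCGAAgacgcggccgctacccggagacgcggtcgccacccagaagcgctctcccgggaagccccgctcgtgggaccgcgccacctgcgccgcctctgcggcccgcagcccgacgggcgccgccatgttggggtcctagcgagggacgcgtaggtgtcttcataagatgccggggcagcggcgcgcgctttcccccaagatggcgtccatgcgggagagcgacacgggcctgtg
TNIP2: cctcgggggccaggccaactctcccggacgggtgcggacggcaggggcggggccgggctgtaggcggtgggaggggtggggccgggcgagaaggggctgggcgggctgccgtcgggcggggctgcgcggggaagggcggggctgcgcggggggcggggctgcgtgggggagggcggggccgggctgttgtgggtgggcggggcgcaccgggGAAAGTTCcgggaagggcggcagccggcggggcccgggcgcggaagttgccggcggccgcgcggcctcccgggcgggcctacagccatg

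The pair was found in 7 of the 63 member promoters, 11.1%, beside 10.1% of 9609 promoters of expressed protein-coding genes. The 7 were CTBP1, NELFA, FAM193A, TNIP2, S100P, TBC1D14 and DCAF16, of which TNIP2 rose with shHSF1, NELFA and TBC1D14 fell and 4 were not called (all tested genes 22.2% rises and 23.5% falls). The E-box CACGTG was in 11 member promoters, 17.5% beside 10.0%. The CRE palindrome TGACGTCA was in 6, 9.5% beside 3.4%, and the E2F motifs TTTGGCGC and TTTCGCGC in 0 beside 2.1%. ATP5ME and MYL5 lie head to head and share 1 stretch in which the E-box and CRE letters overlap. GRK4 and NOP14 also share 1 E-box, and TRMT44 and ACOX3 share 1 CRE, so there are fewer sites than promoters. A match is a run of letters and not a measured binding site.

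In chromatin and transcription, 5 of 15 members rose with shHSF1 and 2 fell, beside 22.2% and 23.5% of all tested genes. PCGF3 was at 103 and 100.05 normalized CPM in shHSF1 and at 58.0 and 54.3 in shNTC, and rose 1.83-fold (edgeR adjusted p = 6.4e-06). LCORL, TADA2B, ZNF518B and MED28 also rose, LCORL to 23.05 and 22.9 normalized CPM in shHSF1 against 12.9 and 12.96 in shNTC. The zinc finger gene ZNF141 fell 1.58-fold, with 4.29 and 4.07 normalized CPM in shHSF1 and 6.57 and 6.86 in shNTC (edgeR adjusted p = 0.00341). NELFA, a subunit of the complex that pauses RNA polymerase, fell 1.24-fold, with 46.1 and 51.9 in shHSF1 and 60.5 and 62.9 in shNTC (edgeR adjusted p = 0.00807); its log2 fold change was -0.31 with all libraries and -0.23 without shHSF1 replicate 1 (adjusted p = 0.0692). NSD2 was at 375 and 372 in shHSF1 and at 355 and 352 in shNTC, and CTBP1 at 166 and 170 in shHSF1 and at 169 and 172 in shNTC; neither was called.

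In signalling, 4 of 9 members rose and 1 fell (all tested genes 22.2% and 23.5%). FGFRL1, a fibroblast growth factor receptor without a kinase domain, was at 95.7 and 90.8 normalized CPM in shHSF1 and at 53.3 and 47.2 in shNTC, and rose 1.88-fold (edgeR adjusted p = 1.25e-05). GRK4, a kinase of G protein-coupled receptors, was at 1.82 and 2.30 in shHSF1 and at 0.640 and 1.12 in shNTC, and rose 2.43-fold (edgeR adjusted p = 0.00593). DOK7, an adaptor of the muscle receptor kinase MuSK, was at 8.09 and 6.14 in shHSF1 and at 3.78 and 2.56 in shNTC, and rose 2.26-fold (edgeR adjusted p = 0.00136). In all 3 the shHSF1 libraries lay above both shNTC libraries. GRK4 and DOK7 met the limit of 1 CPM partly through these shHSF1 libraries, so their rises are tied to the choice of members. TNIP2, an inhibitor of NF-kB signalling, rose to 37.2 and 39.5 in shHSF1 against 31.0 and 27.8 in shNTC. S100P stood at 84.6 and 81.9 in shHSF1 and at 80.4 and 77.9 in shNTC and was not called.

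Among the 8 cytoskeletal members 1 rose and 2 fell (all tested genes 22.2% and 23.5%). WDR1 rose 1.495-fold, with 684 and 648 normalized CPM in shHSF1 and 470 and 436 in shNTC (edgeR adjusted p = 6.18e-05). HAUS3, a subunit of the augmin complex of the spindle, fell to 22.0 and 23.8 in shHSF1 against 29.2 and 29.3 in shNTC (edgeR adjusted p = 0.0103). TACC3 fell to 187 and 208 in shHSF1 against 244 and 222 in shNTC (edgeR adjusted p = 0.0347). These falls were 1.26-fold for HAUS3 and 1.16-fold for TACC3. Without shHSF1 replicate 1 the log2 fold change of HAUS3 was -0.28, beside -0.33 with all libraries (adjusted p = 0.0685), and that of TACC3 was -0.14, beside -0.22 (adjusted p = 0.238). Without shNTC replicate 1 TACC3 had -0.14 (adjusted p = 0.202).

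In membrane traffic, lysosome and endoplasmic reticulum, 3 of 15 members rose and 4 fell, shares near the 22.2% and 23.5% of all tested genes. CPLX1, a complexin that binds SNARE proteins, was at 8.81 and 9.73 normalized CPM in shHSF1 and at 4.42 and 4.19 in shNTC, and rose 2.18-fold (edgeR adjusted p = 0.000101). STX18, a SNARE of the endoplasmic reticulum, and BLOC1S4 also rose, by log2 fold changes of 0.24 and 0.49. HTT fell to 134 and 122 in shHSF1 against 152 and 160 in shNTC, a log2 fold change of -0.26 ± 0.07 (edgeR adjusted p = 0.0092). PIGG, an enzyme of the GPI anchor pathway, TBC1D14 and MAN2B2 fell by smaller amounts, with log2 fold changes of -0.20, -0.22 and -0.18. Of the genes highest in PC9-BrM3, CC2D2A stood at 9.25 and 8.86 in shHSF1 and 10.0 and 9.39 in shNTC, and WFS1 at 117 and 121 in shHSF1 and 123 and 112 in shNTC, and neither was called.

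The small falls of this group kept their direction but missed the threshold when a library was left out. HTT had a log2 fold change of -0.19 without shHSF1 replicate 2 (edgeR adjusted p = 0.0757) and of -0.23 without shNTC replicate 2 (adjusted p = 0.0519). MAN2B2 had -0.22 without shHSF1 replicate 1 (adjusted p = 0.0641), -0.15 without shHSF1 replicate 2 (adjusted p = 0.19) and -0.15 without shNTC replicate 2 (adjusted p = 0.18). TBC1D14 had -0.15 without shHSF1 replicate 1 (adjusted p = 0.171), -0.22 without shNTC replicate 1 (adjusted p = 0.0676) and -0.23 without shNTC replicate 2 (adjusted p = 0.0609). PIGG kept its call in 5 of the 10 alternatives, with log2 fold changes from -0.26 to -0.13 and an adjusted p of up to 0.261, without shHSF1 replicate 2. STX18 kept its call in 4 of the 10, with log2 fold changes from 0.22 to 0.31 and an adjusted p of up to 0.369, in the 8-library fit.

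In mitochondria and metabolism, 2 of 7 members rose and 2 fell, also near the 22.2% and 23.5% of all tested genes. QDPR, which recycles the cofactor tetrahydrobiopterin, fell to 16.2 and 17.5 normalized CPM in shHSF1 against 25.9 and 23.4 in shNTC, 1.44-fold lower (edgeR adjusted p = 0.0018). LETM1 fell to 130.2 and 138 in shHSF1 against 152 and 158 in shNTC (edgeR adjusted p = 0.0271). Without shHSF1 replicate 1, shNTC replicate 1 or shNTC replicate 2 its log2 fold change was -0.15, -0.21 and -0.17, beside -0.19 with all libraries, with adjusted p-values between 0.0501 and 0.177. NAT8L, which makes N-acetylaspartate, and DGKQ, a diacylglycerol kinase, rose by log2 fold changes of 0.56 and 0.34. ATP5ME was at 85.9 and 95.2 in shHSF1 and at 83.4 and 77.0 in shNTC and was not called (edgeR adjusted p = 0.0558), but passed without shHSF1 replicate 1 (0.037) or shNTC replicate 1 (0.0454). GRPEL1, at 72.2 and 79.3 in shHSF1 and 79.4 and 73.5 in shNTC, was not called.

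The other groups held rises and no falls: 2 of 7 in protein turnover, 2 of 3 secreted or at the cell surface and 2 of 4 in RNA processing and DNA repair, beside 22.2% rises and 23.5% falls among all tested genes. FBXL5, an iron-sensing subunit of a ubiquitin ligase, rose to 41.9 and 41.5 normalized CPM in shHSF1 against 27.7 and 27.4 in shNTC, and MAEA to 155 and 162 in shHSF1 against 138 and 133 in shNTC (log2 fold change 0.25, edgeR adjusted p = 0.00748; without shNTC replicate 2 log2 fold change 0.21, adjusted p = 0.052). HS3ST1 rose to 26.3 and 29.2 in shHSF1 against 21.6 and 19.98 in shNTC (edgeR adjusted p = 0.00412). FGFBP1 rose to 30.4 and 37.7 in shHSF1 against 26.8 and 24.0 in shNTC (edgeR adjusted p = 0.00909), by 0.45 on the log2 scale with all libraries, 0.29 without shHSF1 replicate 2 (adjusted p = 0.0612) and 0.36 without shNTC replicate 2 (adjusted p = 0.0669). UVSSA rose to 32.9 and 28.6 in shHSF1 against 24.1 and 23.8 in shNTC (log2 fold change 0.39, edgeR adjusted p = 0.00733; without shHSF1 replicate 1 log2 fold change 0.28, adjusted p = 0.066). In each of these genes the shHSF1 libraries lay above both shNTC libraries. RNF4, LAP3, CPZ and NOP14 were not called.

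Of the 12 members in no role group, 5 rose and 2 fell (all tested genes 22.2% and 23.5%). CCDC96 was at 6.60 and 7.40 normalized CPM in shHSF1 and at 2.48 and 1.72 in shNTC, and rose 3.34-fold (edgeR adjusted p = 6.57e-05). FAM200B was at 16.6 and 14.1 in shHSF1 and at 9.73 and 7.32 in shNTC, and rose 1.83-fold (edgeR adjusted p = 0.00115). MRFAP1L1 fell to 61.3 and 61.5 in shHSF1 against 80.2 and 81.2 in shNTC (edgeR adjusted p = 0.00092), while its near copies MRFAP1 and ENSG00000170846 rose. The MRFAP1 rise was small, a log2 fold change of 0.19, and missed the threshold in the 8-library fit (edgeR adjusted p = 0.395). ENSG00000170846 rose by 0.71 and kept its call there (edgeR adjusted p = 0.00389). Reads of these 3 copies, and of the clustered zinc finger genes ZNF718, ZNF732, ZNF141 and ZNF721, may be shared or lost, so their values are uncertain. TMEM128, a membrane protein, fell to 11.7 and 9.25 in shHSF1 against 17.0 and 13.04 in shNTC (edgeR adjusted p = 0.0274), with a log2 fold change of -0.50 with all libraries, -0.33 without shHSF1 replicate 2 (adjusted p = 0.156) and -0.29 without shNTC replicate 1 (adjusted p = 0.213).

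Some neighbouring members overlap in the genome. CCDC96 and TADA2B, FBXL5 and FAM200B, ATP5ME and MYL5, and ACOX3 and TRMT44 overlap on opposite strands, and per the file headers the reads were counted by strand. CCDC96 with TADA2B and FBXL5 with FAM200B rose together with shHSF1, and in the other 2 pairs neither gene was called. RNF4 and FAM193A overlap by 60 bases and GPR78 and CPZ by 27100 bases on the same strand, so reads there cannot be given to 1 gene. By position, bins of 2 Mb from the chromosome end held 6, 5, 1, 5, 0, 3, 0, 4 and 2 rises and 5, 2, 1, 4, 0, 0, 0, 0 and 1 falls among 23, 15, 6, 15, 5, 3, 2, 5 and 6 members, beside 22.2% rises and 23.5% falls among all tested genes.

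The shNTC cells, which also derive from PC9-BrM3, were set beside PC9 parental as a further view of the members. These values share the PC9 parental libraries with the comparison that chose the members, and lane (lane 1 for shNTC, lane 7 for PC9 parental), transduction, selection and doxycycline cannot be told apart from the subline, so they are given as a description. Of 80 members, 66 were called higher by edgeR, where 32.4% of all tested genes were called higher, and 3 lower (S100P, LCORL and ZNF721), where 29.6% were called lower. The shNTC libraries also counted in the mean of at least 1 CPM. DOK7, C4orf48, IDUA, CPZ and CPLX1, which reached that limit only through the transduced libraries, are among the 66. The counts of higher members in this paragraph are thus partly tied to the choice of members. The median log2 fold change was 0.83 (quartiles 0.35 and 1.75) beside -0.02 over all genes, with 75 positive members. Among 151 bins of 20 Mb over the genome this region had rank 8 by this median. Chromosome 8 at 140 to 160 Mb came first, with 1.57. Both shNTC libraries lay above both PC9 parental libraries in 70 members (40.1% of all genes) and below in 4 (40.7% of all genes). With upper-quartile factors the members' median was 0.70 and that of all genes -0.15.

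**Figure D4:**
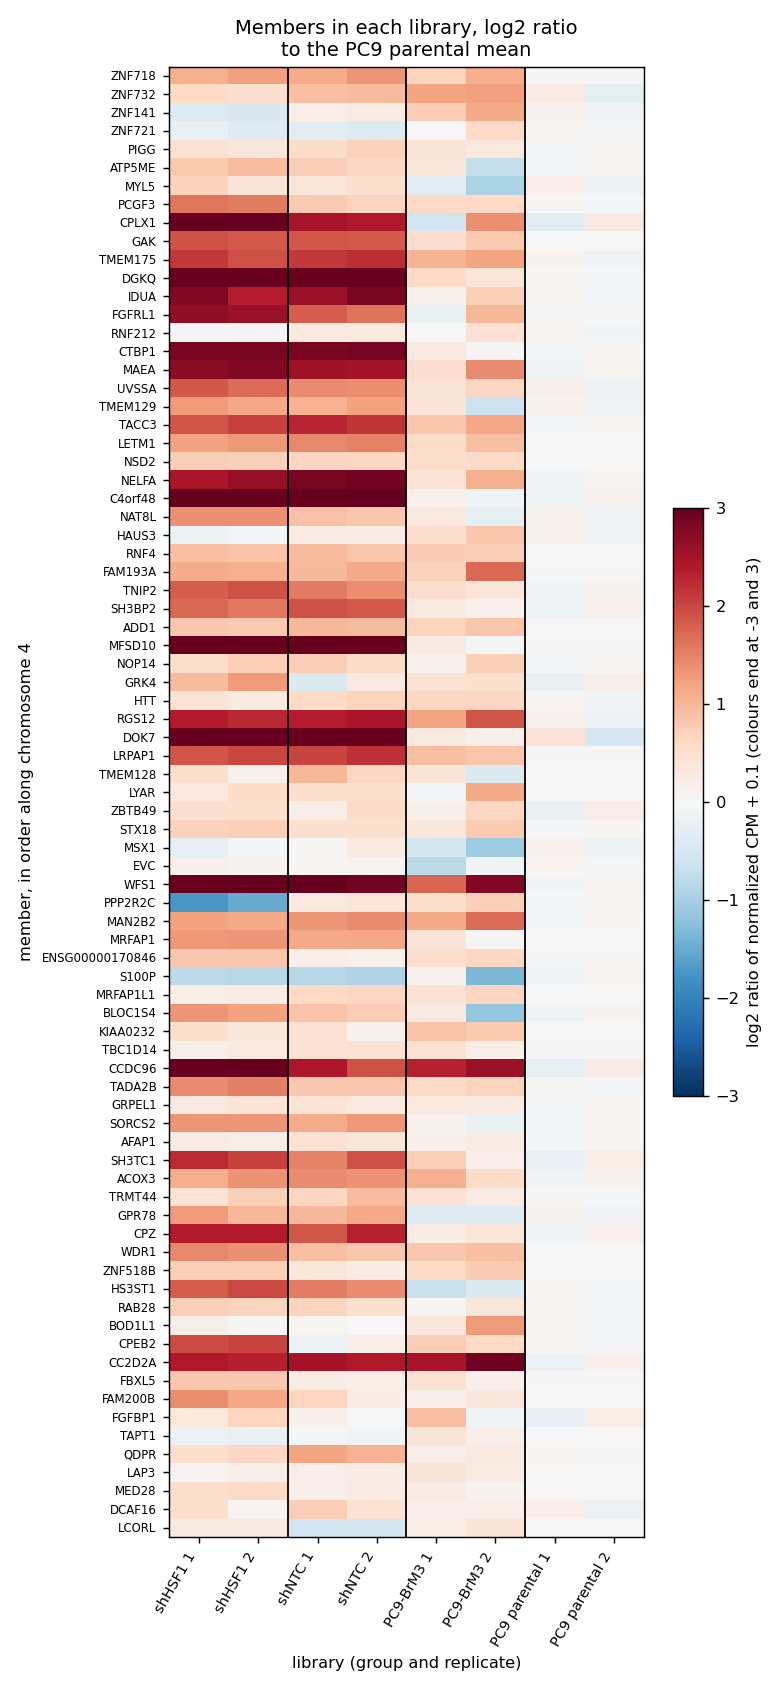
Log2 ratio of normalized CPM (plus 0.1) to the PC9 parental mean for each of the 80 members (rows, in order along chromosome 4) in each library (columns); red is higher and blue lower, and colours end at -3 and 3. The median ratio per library is 1.01 and 1.03 in shHSF1, 0.87 and 0.80 in shNTC, and 0.40 and 0.56 in PC9-BrM3.

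Library by library, shHSF1 replicates 1 and 2 lay above both PC9 parental libraries for 72 and 71 of the 80 members, and shNTC replicates 1 and 2 for 71 and 74. The shares of all tested genes for 1 library were not measured. For 1 shNTC library the share cannot be under the 40.1% that held for both shNTC libraries together. No share of all genes was measured for shHSF1 against PC9 parental, so the 72 and 71 are given as a description only. The median log2 ratio to the PC9 parental mean was 1.01 and 1.03 in the shHSF1 libraries and 0.87 and 0.80 in the shNTC libraries, both larger than the 0.40 and 0.56 of PC9-BrM3. Some members that barely differed between PC9-BrM3 and PC9 parental stood far higher in shNTC. CTBP1, at 169 and 172 normalized CPM in shNTC, was at 28.04 and 23.8 in PC9-BrM3 and at 22.6 and 24.2 in PC9 parental, and MFSD10, a transporter-like membrane protein, was at 39.9 and 46.3 in shNTC, 3.21 and 2.56 in PC9-BrM3 and 2.71 and 2.60 in PC9 parental. NELFA, with a moderate difference in PC9-BrM3, was at 60.5 and 62.9 in shNTC, 10.95 and 17.7 in PC9-BrM3 and 7.86 and 8.84 in PC9 parental. DOK7 and C4orf48 were near 0 in all 4 untransduced libraries (at most 0.0890 and 0.0190 normalized CPM), with DOK7 at 3.78 and 2.56 and C4orf48 at 2.64 and 1.82 in shNTC.

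GC content moved with the values of shNTC against PC9 parental. The members had a median transcript GC content of 52.9%, beside 48.0% for all expressed protein-coding genes. In 5 equal bins of genes by GC content, from lowest to highest, the members' median log2 fold change of shNTC over PC9 parental was 0.24, 0.51, 0.65, 0.84 and 2.04 (10, 11, 13, 24 and 22 members), beside -0.26, -0.25, -0.15, 0.32 and 1.36 for all expressed coding genes. For PC9-BrM3 over PC9 parental the members' medians were 0.51, 0.54, 0.53, 0.58 and 0.48, beside -0.01, -0.02, 0.00, 0.06 and 0.16. The members' medians thus climbed with GC content between shNTC and PC9 parental and were nearly level between PC9-BrM3 and PC9 parental, and they lay above those of all genes in every bin of both. The part of GC content in the shNTC values was not tested.

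**Figure D5:**
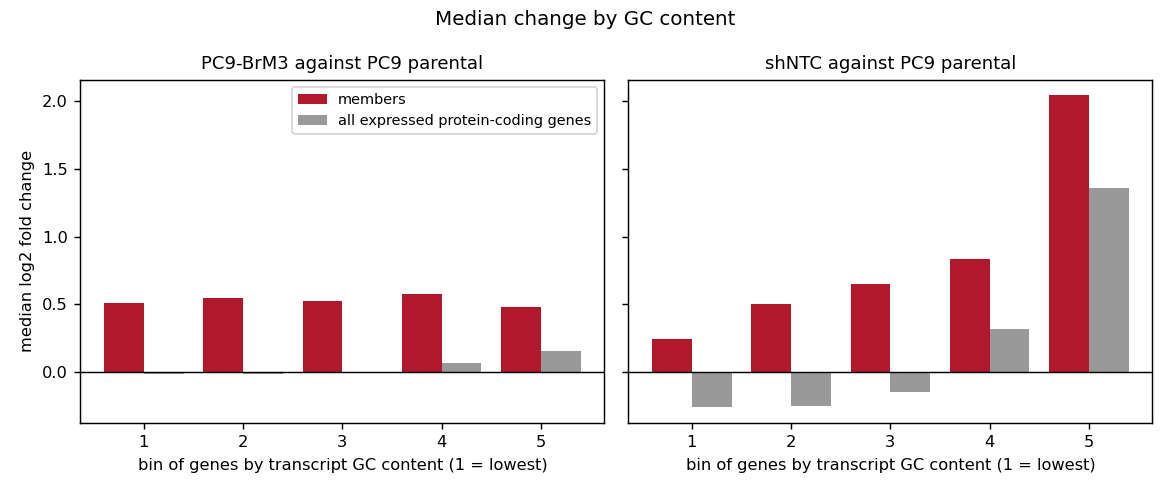
Median log2 fold change (y axis) of members (red) and of all expressed protein-coding genes (grey) in 5 equal bins of genes by transcript GC content (x axis, 1 lowest), for PC9-BrM3 over PC9 parental (left) and shNTC over PC9 parental (right). On the left the red bars stay between 0.48 and 0.58, and on the right they run from 0.24 to 2.04 while the grey bars run from -0.26 to 1.36.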

How the data were processed

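RNA-seq was analysed for 8 libraries of 4 groups, taken from the sample titles. The authors deposited unnormalized counts, made with featureCounts 1.6.1 from exons grouped by Ensembl ID and with reverse strand, per the file headers. The submitters' processing notes list Trim Galore, HISAT2, DESeq2 and GRCh37 without a role. Gene types, symbols and GC content came from GENCODE 29 by gene ID (52526 of 63677 IDs, 82.5%), so 37 IDs of the region had no type and were not members. The members, role groups, motifs and naming rule were chosen with earlier results of these data known.

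Each comparison was fitted on its own 4 libraries in R 4.3.3 by edgeR 4.0.16. Genes passed filterByExpr with a minimum count of 10 and a minimum total of 15, scaling was by TMM, and calls came from the quasi-likelihood F test with robust estimation, and Benjamini-Hochberg adjustment over all genes with a threshold of 0.05. There were 2 residual degrees of freedom, and SE is the log2 fold change over the square root of F. All 80 members were tested in the transduced comparisons and 78 in PC9-BrM3 against PC9 parental. Alternatives were DESeq2 1.42.0, RLE and upper-quartile factors, no filter, all 8 libraries in 1 fit, members at 5 CPM or more, a replicate block and leaving out each library. The fit was run on simulated counts with the same spread setting for all genes and groups. PC9-BrM3 replicates stood further apart than those of other groups, so this run does not test the fit at their spread. Replicate numbers did not pair the samples.

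Named were the 8 largest non-overlapping rises and falls with shHSF1, the 8 highest and up to 8 negative members in PC9-BrM3, the 3 most abundant members of each role group, and the genes nearest each limit. All other named members were added after their values were seen. Among them are those named for a call, an overlap, a copy, a promoter match or the agreement of their replicates.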

Additional observations from a re-analysis of the deposited data

How the results depend on the processing

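The counts of members called with shHSF1 were 26 rises and 13 falls. They moved by more than 1.5 times with all 8 libraries in 1 fit (13 rises, 4 falls) and with upper-quartile factors (8 falls); leaving out 1 library gave 23 to 25 rises and 9 falls each time. The median log2 fold change with shHSF1 was 0.16 with upper-quartile factors and 0.055 to 0.121 with 1 library left out. The median of PC9-BrM3 against PC9 parental ran from 0.40 to 0.59 with 1 library left out, and that of shNTC against PC9 parental was 0.70 with upper-quartile factors and 0.73 over the 67 members at 5 CPM or more. The cause of these differences was not tested. A replicate block gave 26 rises, 17 falls and medians of 0.09 with shHSF1, 0.49 with 67 positive members in PC9-BrM3, and 0.82 in shNTC; same-numbered libraries had deviations from their group means correlated at r of 0.006, 0.012 and -0.077 over 18122 genes, so they share only a number. Among named members, 413 alternative values kept their side of the threshold, 42 lost the call, 5 gained it and 0 reversed. With 2 libraries a group, depth limits low members such as GRK4, ZNF732, C4orf48 and CCDC96.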

Other observations

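Non-coding transcripts of the same stretch were not members; their fold changes are given ± SE. Of 251 IDs of other types in the region, 29 were tested in PC9-BrM3 against PC9 parental, with 21 positive values and a log2 median of 0.53. CTBP1-DT, divergent from CTBP1, was at 19.9 and 20.8 normalized CPM in PC9-BrM3 and at 9.53 and 10.8 in PC9 parental, a log2 fold change of 1.01 ± 0.18, while CTBP1 itself overlapped between the groups. The antisense RNA AFAP1-AS1 was at 246 and 295 in PC9-BrM3 and at 172 and 184 in PC9 parental. Since the region was chosen by this comparison, these values are a description with no test. In shHSF1 against shNTC, 27 of the 251 IDs were tested, with 15 positive values. By edgeR 1 was called higher and 3 lower, beside 22.2% and 23.5% of all tested genes, and the 3 lower ones are named next. With shHSF1 AFAP1-AS1 fell to 182 and 179.5 normalized CPM against 275 and 275 in shNTC, a log2 fold change of -0.58 ± 0.05 (edgeR adjusted p = 1.97e-05), and AFAP1 was not called. TAPT1-AS1 fell to 0.874 and 0.869 in shHSF1 against 1.65 and 2.53 in shNTC (edgeR adjusted p = 0.00559). HSP90AB2P, a pseudogene of the heat shock protein gene HSP90AB1 whose reads may belong to that gene, fell to 13.2 and 15.1 in shHSF1 against 22.7 and 22.3 in shNTC (edgeR adjusted p = 0.000659).

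Of the coding genes of the region under 1 CPM, 12 were tested with shHSF1, and the 4 called by edgeR were all higher, beside 22.2% higher and 23.5% lower among all tested genes. A gene this low may pass the count filter only through the group where it is high. No result on direction is therefore read from these calls. ZFYVE28, just under the limit, had 2.39 and 2.58 normalized CPM in shHSF1 and 0.805 and 0.980 in shNTC, a log2 fold change of 1.51 ± 0.23 (edgeR adjusted p = 0.000522). EVC2, the partner of EVC, had 11 and 17 counts in shHSF1 and 2 and 1 in shNTC. BST1, a cell surface enzyme, had 18 and 19 counts in shHSF1 and 3 and 0 in shNTC. These genes were chosen after their values were seen.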
